A study of Caenorhabditis elegans with 104 samples.

Results

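The 10 genes described here, dpy-17, sqt-3, dpy-10, dpy-7, sqt-1, bli-1, bli-2, dpy-13, rol-6 and dpy-5, encode cuticle collagens of the nematode Caenorhabditis elegans for which mutants with an altered body shape are known. They were picked by sequence name (F54D8.1, F23H12.4, T14B4.7, F46C8.6, B0491.2, C09G5.6, F59E12.12, F30B5.1, T01B7.7 and F27C1.8) out of 18889 genes measured, and each was read by 1 probe, whose cross-hybridisation with other collagens was not tested. RNA of single wild type (N2) worms, grown at 20°C on OP50 bacteria from a timed egg lay, was amplified in 2 rounds, labelled with Cy5 and hybridised against a Cy3-labelled pool of RNA from 15 worms aged 4 days. The groups were 13 worms of day 4, 17 worms each of days 8, 12, 14 and 16, 14 worms of day 20 and 9 worms of day 24, with no genotype or treatment other than age. The worms of an age were taken at random from 7 plates of 1 cohort at that age, so age and day of harvest cannot be told apart. Each worm was filmed on a plate without bacteria and then frozen. Samples that failed quality control were not used, and the labels name no batch.

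The cuticle is a collagen-rich extracellular matrix that the epidermis secretes before each moult. Collagen chains are hydroxylated and trimerised in the secretory pathway, trimmed by proteases at both ends and cross-linked outside the cell. Loss or alteration of single chains makes worms short and fat (Dumpy, dpy), squat (sqt), twisted along the body (Roller, rol) or blistered (Blister, bli). Most collagen genes are transcribed in pulses that accompany the moults, and the adult no longer moults. DPY-17 and SQT-3 act together, and the astacin protease DPY-31 processes SQT-3. DPY-7 and DPY-10 belong to the collagens of the annular furrows. SQT-1 and ROL-6 interact genetically, and BLI-1 and BLI-2 are needed for the struts of the adult cuticle. DPY-5 and DPY-13 are further chains whose mutants are Dumpy.

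Values are log2 ratios of worm over pool, so 0 is the level of the pool, and a difference of 1 is a 2-fold difference. The deposited tables state neither the base of the logarithm nor which dye is on top. Base 2 was assumed, and Cy5 over Cy3 was assumed because the labels give Cy5 as the dye of every worm. The opposite orientation would turn every direction given below. With no dye swap, a dye bias of a probe is part of each of its ratios and cancels in differences between ages. A level of 1 gene cannot be set against that of another on this scale. In RNA of a whole worm, fewer cells of a type and less RNA per cell cannot be told apart. Genes were tested with limma across all 18889 genes and called at a Benjamini-Hochberg adjusted p below 0.05 over all genes.

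Over the whole span of ages, 3 of the 10 collagens rose, dpy-17, sqt-3 and dpy-10, 3 fell, rol-6, dpy-5 and dpy-13, and 4 were not called, dpy-7, sqt-1, bli-1 and bli-2. Among all genes, 13.7% rose and 14.2% fell in the same fit, so that 27.8% were called in either direction. The slope was 0.211 ± 0.0242 log2 per day for dpy-17 (SE over the worms of all 7 ages, limma adjusted p = 1.35e-11) and 0.189 ± 0.0316 for sqt-3 (adjusted p = 1.05e-06). Ranked by steepness of rise among all genes, dpy-17 held place 14 and sqt-3 place 26. For dpy-10 the slope was smaller, 0.0413 ± 0.0148 log2 per day (adjusted p = 0.0261). With arrays weighted by quality it was 0.0334 with an adjusted p of 0.0956, and without replicate 8 or replicate 3 of day 4 (numbers given here in order of accession, not by the labels) the adjusted p was 0.0628 or 0.0536. The falling slopes were -0.0507 ± 0.0143 log2 per day for dpy-5 (adjusted p = 0.00377), -0.0451 ± 0.0121 for rol-6 (adjusted p = 0.00231) and -0.0285 ± 0.0089 for dpy-13 (adjusted p = 0.00947). The median slope of the 10 genes was 0.0133 log2 per day, against 0.000176 for all genes.

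**Figure D1:**
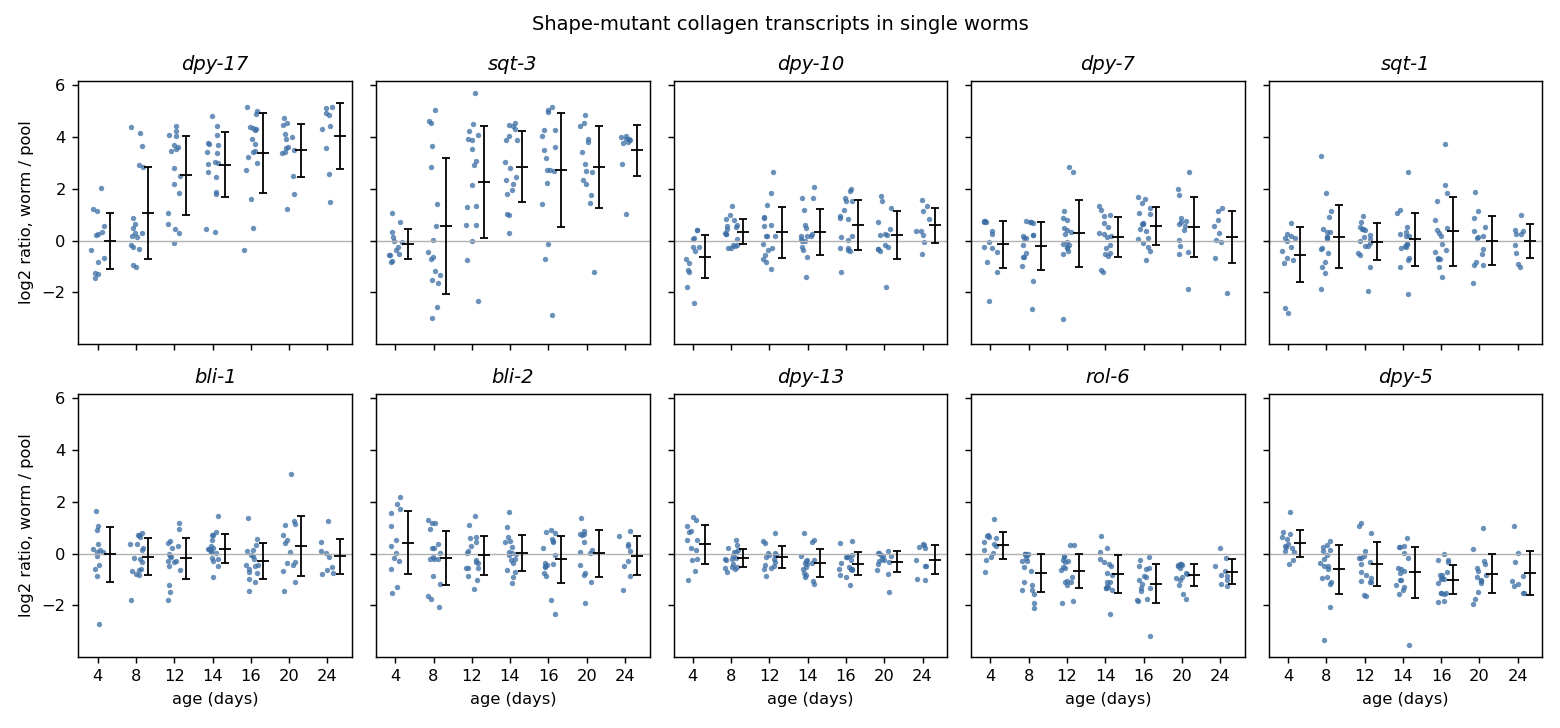
Log2 ratio of worm over pool (vertical axis) by age in days (horizontal axis) for each of the 10 collagen genes; each blue point is 1 worm, and the black bar is the mean with its SD. The dpy-17 and sqt-3 points lie higher from day 12 on and are spread over several log2 units, while the rol-6 and dpy-5 points sit lower on average at every age after day 4.

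Among the risers, dpy-17 had the larger slope. Its median log2 ratio was 0.21 at day 4, 0.30 at day 8, 2.81 at day 12, 3.03 at day 14, 3.72 at day 16, 3.60 at day 20 and 4.42 at day 24. Single worms of day 24 ran from 1.48 to 5.18, against -1.45 to 2.05 in worms of day 4. These ranges overlapped, and 8 of the 9 day 24 worms were above every day 4 worm. Over all ages after day 4, 63 of 91 worms were above the highest day 4 worm and 0 were below the lowest. Day 24 exceeded day 4 by 4.06 ± 0.60 log2 (SE, limma adjusted p = 1.81e-07), a 16.7-fold difference if the logarithm is base 2. The means followed the order of the ages, with -0.01 ± 1.08 at day 4 (SD, n = 13), 1.07 ± 1.79 at day 8 (n = 17), 2.52 ± 1.54 at day 12, 2.93 ± 1.26 at day 14, 3.39 ± 1.55 at day 16, 3.49 ± 1.02 at day 20 and 4.05 ± 1.28 at day 24.

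A second large rise was that of sqt-3, which also had its largest mean at day 24, with a wider scatter between worms at most ages. Median log2 ratios were -0.24 at day 4, -0.44 at day 8, 2.93 at day 12, 2.80 at day 14, 3.20 at day 16, 2.83 at day 20 and 3.87 at day 24. Day 24 worms ran from 1.03 to 4.05, against -0.83 to 1.07 in day 4 worms, and 8 of 9 day 24 worms were above every day 4 worm. The difference was 3.62 ± 0.79 log2 (SE, limma adjusted p = 0.000369), a 12.3-fold difference. Of the 91 worms after day 4, 67 exceeded the day 4 range of sqt-3 and 9 were below it, 6 of these 9 at day 8. The SD between worms was 0.57 at day 4 and 2.63 at day 8, the lowest and the highest of the 7 ages. Means from day 12 to day 20 lay between 2.28 and 2.85, differences smaller than the SD of any of these ages.

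For dpy-10, a furrow collagen, the difference was of another form: it was already present at day 8 and the later means stayed within 0.22 to 0.60. The median log2 ratio was -0.40 at day 4, 0.29 at day 8, 0.18 at day 12, 0.18 at day 14, 0.83 at day 16, 0.23 at day 20 and 0.39 at day 24. Day 24 worms spanned -0.52 to 1.56, against -2.40 to 0.41 in day 4 worms. The ranges overlapped, with 4 of 9 day 24 worms above all day 4 worms, and 39 of 91 older worms above them in all. The day 24 difference of 1.2 ± 0.37 log2 was called (SE, limma adjusted p = 0.0131), and the day 20 difference of 0.84 ± 0.32 was not (adjusted p = 0.0542).

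Of the 3 genes that fell, rol-6, the gene of a Roller mutant, had a median log2 ratio of 0.39 at day 4, -0.53 at day 8, -0.54 at day 12, -0.82 at day 14, -1.10 at day 16, -0.77 at day 20 and -0.82 at day 24. Worms of day 24 ranged over -1.26 to 0.22, against -0.72 to 1.34 in day 4 worms. Although these ranges overlapped, 48 of the 90 older worms with a value were below the lowest day 4 worm and 0 were above the highest. Day 24 was lower than day 4 by an estimate of -1.02 ± 0.28 log2 (SE, limma adjusted p = 0.00583). The largest difference from day 4 was at day 16, -1.49 ± 0.24 (adjusted p = 1.09e-06), with 16 of 17 worms measured there.

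A similar course was seen for dpy-5. Its median log2 ratio was 0.31 at day 4, -0.47 at day 8, -0.40 at day 12, -0.67 at day 14, -0.995 at day 16, -0.87 at day 20 and -1.07 at day 24. Day 24 worms lay between -1.54 and 1.06, against -0.42 and 1.62 for day 4 worms. Of 91 older worms, 57 were below the day 4 range and 0 above it, and the day 24 difference was -1.13 ± 0.35 log2 (SE, limma adjusted p = 0.0149).

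The fall of dpy-13 was the smallest of those called. Its median log2 ratio was 0.51 at day 4, -0.21 at day 8, -0.07 at day 12, -0.37 at day 14, -0.52 at day 16, -0.24 at day 20 and -0.27 at day 24. Groups overlapped widely: day 24 worms spanned -1.04 to 0.35, against -1.03 to 1.40 in day 4 worms, and 5 of 91 older worms were below the day 4 range. The day 24 difference of -0.60 ± 0.22 log2 (SE, limma adjusted p = 0.048) missed the threshold in 12 of the 22 fits that each left out 1 worm of day 4 or day 24, where the adjusted p reached 0.137 without replicate 3 of day 24.

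The 4 genes that were not called had means between -0.54 and 0.56 at every age. The furrow collagen dpy-7 averaged 0.14 ± 1.02 at day 24 (SD, n = 9) and -0.14 ± 0.91 at day 4 (n = 13), with its highest mean, 0.56 ± 0.73, at day 16. Its slope was 0.034 ± 0.0167 log2 per day (SE, limma adjusted p = 0.123), and without the day 24 worms it was 0.0523 with an adjusted p of 0.0397. The collagen sqt-1 averaged -0.03 ± 0.66 at day 24 and -0.54 ± 1.05 at day 4, and its slope was 0.0195 (adjusted p = 0.457). Single worms stood high for sqt-1, up to 3.72 at day 16. Of the strut collagens, bli-1 averaged -0.11 ± 0.67 at day 24 and -0.02 ± 1.06 at day 4, and bli-2 averaged -0.09 ± 0.75 at day 24 and 0.42 ± 1.21 at day 4. Their slopes were 0.00698 (adjusted p = 0.767) and -0.0146 (adjusted p = 0.538).

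Tested for a difference of any form between ages, the same 6 genes were called as for the slope, where 33% of all genes were called. The limma F was 14.5 for dpy-17 (adjusted p = 4.25e-10), 7.26 for sqt-3 (adjusted p = 2.25e-05), 6.85 for rol-6 (adjusted p = 4.5e-05), 4.35 for dpy-5 (adjusted p = 0.00323), 3.55 for dpy-13 (adjusted p = 0.0129) and 3.09 for dpy-10 (adjusted p = 0.028).

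Separate contrasts were read step by step. At day 8 against day 4, 1 collagen was higher and 3 were lower, where 5.21% of all genes were higher and 6.14% lower. The higher one was dpy-10, by 0.96 ± 0.31 log2 (SE, limma adjusted p = 0.029). The lower ones were rol-6, with a difference of -1.07 ± 0.24 (adjusted p = 0.00075), dpy-5, with -1.003 ± 0.30 (adjusted p = 0.0149), and dpy-13, with -0.53 ± 0.19 (adjusted p = 0.0466). At this age neither dpy-17, with a difference of 1.07 ± 0.51 (unadjusted p = 0.0384, adjusted p = 0.177), nor sqt-3, with 0.70 ± 0.67 (adjusted p = 0.583), was called.

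The next step, between days 8 and 12, called those 2 genes and none of the 4 above. Day 12 was higher than day 8 for dpy-17, by 1.45 ± 0.48 log2 (SE, limma adjusted p = 0.0247), and for sqt-3, by 1.71 ± 0.63 (adjusted p = 0.0487). Of the 10 genes 0 were lower, where 7.76% of all genes were higher and 7.83% lower. The SE of every contrast uses 1 spread per gene shared by all 7 ages. For both genes the SD was largest at day 8, 1.79 for dpy-17 and 2.63 for sqt-3. These 2 calls thus rest on an assumption of equal spread, and a fit with separate spreads was not run. Between days 12 and 14, 14 and 16, 16 and 20, and 20 and 24, limma called 0 of the 10 collagens, and 0 of them had an unadjusted p below 0.05 in any of these steps. The shares of all genes called in those steps were 0%, 0.0159%, 0.254% and 0%, with 1156, 788, 1519 and 586 genes at an unadjusted p below 0.05. With so few genes called, these steps do not place the rise between days 8 and 12 alone. For dpy-17 the difference from day 4 was 2.53 ± 0.51 log2 (SE) at day 12 and 4.06 ± 0.60 at day 24. For sqt-3 these were 2.41 ± 0.67 and 3.62 ± 0.79.

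Against day 4, the same 3 collagens were higher and the same 3 lower at days 12, 14, 16 and 24, and at day 20 dpy-10 missed the threshold. The shares of all genes higher were 11.5% at day 12, 10.5% at day 14, 10.2% at day 16, 9.98% at day 20 and 8.35% at day 24, and the shares lower were 11.2%, 9.64%, 9.89%, 10.5% and 8.14%. All these contrasts use the same 13 day 4 worms. Compared with the pool of the same age, 0 of the 10 genes were called in the day 4 worms by limma (1 higher and 1 lower at an unadjusted p below 0.05), where 7.89% of all genes were higher and 10.2% lower. Just above the threshold were dpy-10, at -0.62 ± 0.23 log2 (SE, adjusted p = 0.0522), and dpy-13, at 0.36 ± 0.14 (adjusted p = 0.0576). An offset of the day 4 worms themselves would enter every difference from day 4, and one of pool or dye would cancel. These cannot be told apart. With quantile normalisation or with arrays scaled to 1 spread, dpy-13 was called higher and dpy-10 lower than the pool there.

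**Figure D2:**
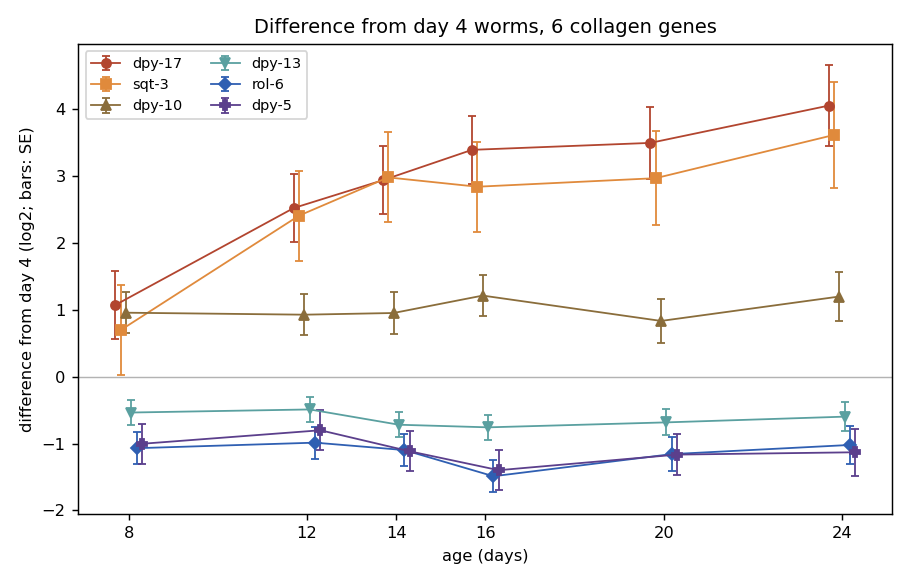
Difference from the day 4 worms in log2 (vertical axis) at each later age in days (horizontal axis) for the 6 called collagens; points are limma estimates and bars their SE. The line of dpy-17 is at 1.07 at day 8, 2.53 at day 12 and 4.06 at day 24, and that of sqt-3 at 0.70, 2.41 and 3.62. The other 4 genes are near their later level at day 8.

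The large col family, named by number and mostly without known mutants, served for comparison. Of 138 col genes, 3 rose and 27 fell over age, where 13.7% of all genes rose and 14.2% fell. Their median slope was -0.00442 log2 per day. The steepest col rise was 0.0741 log2 per day, in col-121, so 0 of the 138 exceeded the slope of dpy-17 or sqt-3, and 3 of 138 exceeded that of dpy-10. At the falling end 22 of 138 col genes had smaller slopes than dpy-5 and 23 smaller slopes than rol-6, the steepest being -0.136 for col-8. The mean over the col genes was -0.69 ± 0.15 at day 24 (SD, n = 9) and -0.14 ± 0.28 at day 4 (n = 13), with its lowest value, -0.99 ± 0.18, at day 8. At day 8 against day 4, 2 col genes were higher and 45 lower, where 5.21% of all genes were higher and 6.14% lower. At day 24 against day 4 limma called 0 higher and 37 lower (6 and 42 at an unadjusted p below 0.05). The shares of all genes there were 8.35% and 8.14%. In the step between days 8 and 12, where dpy-17 and sqt-3 were called higher, 14 of the 138 col genes were higher at day 12 and 1 was lower. Their median difference was 0.14 log2, and 7.76% of all genes were higher and 7.83% lower in this step.

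Subtracting the mean of the col genes from each gene in the same worm tested the difference itself. Relative to the col genes, 4 of the 10 collagens had a more positive slope and 2 a more negative one, where 21.2% of all genes were higher and 5.87% lower by this measure. The more positive ones were dpy-17, with a difference of 0.224 ± 0.0238 log2 per day (SE, limma adjusted p = 3.8e-13), sqt-3, with 0.201 ± 0.031 (adjusted p = 1e-07), dpy-10, with 0.0541 ± 0.0161 (adjusted p = 0.00658), and dpy-7, with 0.0471 ± 0.0175 (adjusted p = 0.0336). With array weights the adjusted p of dpy-7 was 0.094 and that of dpy-10 0.0644, and with the median of the col genes that of dpy-7 was 0.0618. Without the day 4 worms the difference of dpy-10 turned to -0.00898 (adjusted p = 0.752). The call of dpy-7 was also lost without any of 6 single day 4 worms, replicates 2, 3, 4, 5, 11 and 13, with an adjusted p of up to 0.082. The more negative ones were dpy-5, with -0.0378 ± 0.0137 (adjusted p = 0.0288), and rol-6, with -0.0319 ± 0.0109 (adjusted p = 0.0192). For dpy-13 (adjusted p = 0.264), sqt-1 (adjusted p = 0.201), bli-1 (adjusted p = 0.333) and bli-2 (adjusted p = 0.948) a difference from the col mean was not detected.

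**Figure D3:**
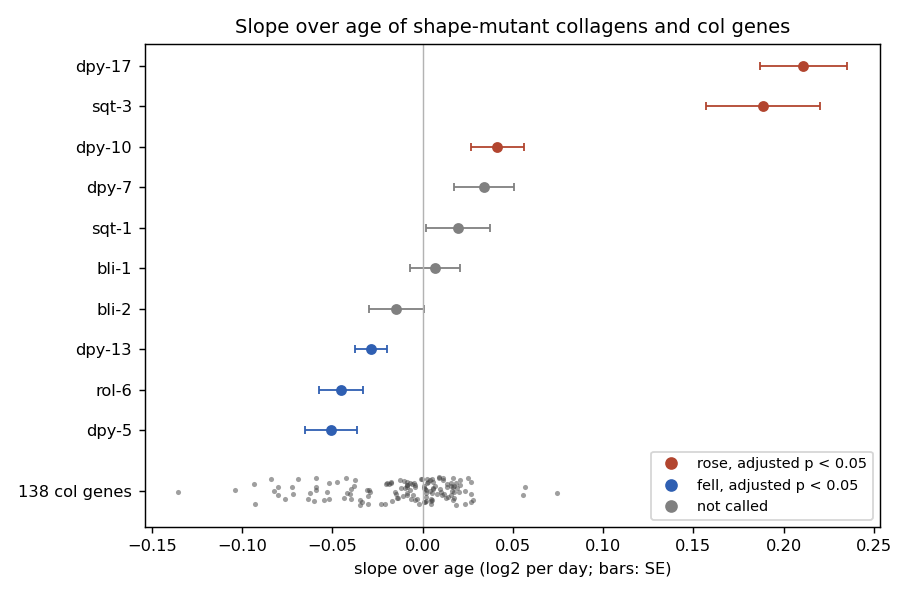
Slope over age in log2 per day (horizontal axis) for the 10 collagens, each with its SE, and below them for the 138 col genes as grey points. The slopes of dpy-17 and sqt-3 are to the right of every col gene, and those of the other 8 collagens lie within the range of the col genes.

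Worms of the same age differed greatly in dpy-17 and sqt-3. At day 8, 12 worms had dpy-17 log2 ratios of -1.03 to 0.86 and the other 5 had 2.83 to 4.40. For sqt-3, 12 worms had -2.99 to 1.41 and 5 had 2.83 to 5.04, and the 5 worms with the highest values were the same worms for both genes.

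Within ages, the deviations of dpy-17 and sqt-3 from the mean of their age went together, with Pearson r = 0.786 and Spearman rho = 0.753 over the worms of all 7 ages (both permutation p = 1e-05, the smallest that 100000 permutations can give, adjusted p = 0.00045 for r over 45 pairs of genes). Without the 2 worms farthest from the median, r was 0.763. Age by age, r was -0.216 at day 4, 0.875 at day 8, 0.828 at day 12, 0.808 at day 14, 0.893 at day 16, 0.601 at day 20 and 0.873 at day 24, so that a positive relation was seen at the 6 later ages and not at day 4. For a description, the day 8 worms were split by these same values into the 12 lower and the 5 higher worms. Within the 12 lower worms r was 0.0988 (permutation p = 0.759, rho = 0.014 with permutation p = 0.973, and r = 0.231 without the 2 farthest worms). A cut on both genes narrows their range and lowers r by itself, and 12 worms are few. The relation at day 8 was thus seen across the 2 sets, and whether it held within the lower one cannot be told. The 5 high worms are too few for a value of their own. Over the 87 worms of the other ages r was 0.751.

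**Figure D4:**
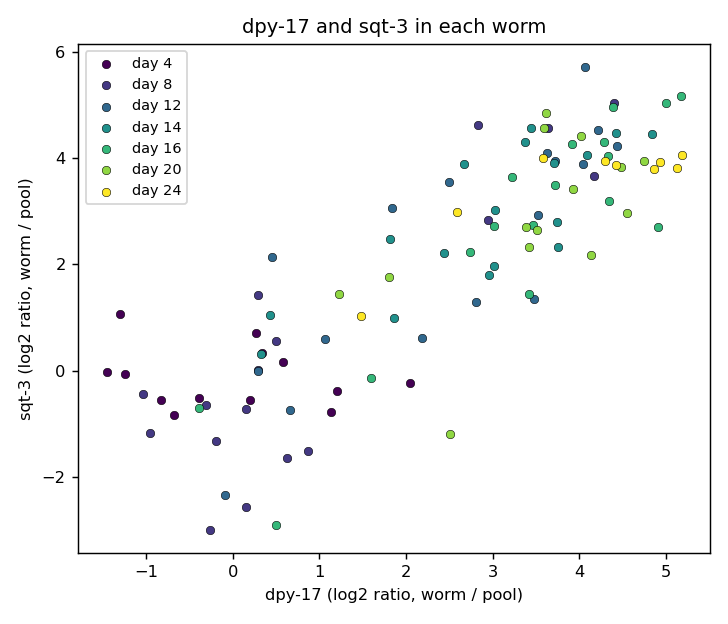
Log2 ratio of worm over pool for dpy-17 (horizontal axis) and sqt-3 (vertical axis) in each worm, coloured by age. Day 4 worms and 12 of the 17 day 8 worms are at the lower left, and 5 day 8 worms lie at the upper right among older worms.

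Only 2 more of the 45 pairs of these collagens passed the same correction. These were dpy-17 with dpy-10, at r = 0.386 and rho = 0.378 (permutation adjusted p = 0.00075 for r and 0.00105 for rho, and r = 0.385 without the 2 farthest worms), and sqt-3 with dpy-10, at r = 0.405 and rho = 0.453 (permutation adjusted p = 0.000675 for r and 0.000225 for rho, and r = 0.381 without the 2 farthest worms). The other 42 pairs had r between -0.191 and 0.270. With the first principal component of the deviations of all genes as a covariate, which held 10.9% of their variance, the pair of dpy-17 and sqt-3 was the 1 pair still called in the fits over all genes.

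**Figure D5:**
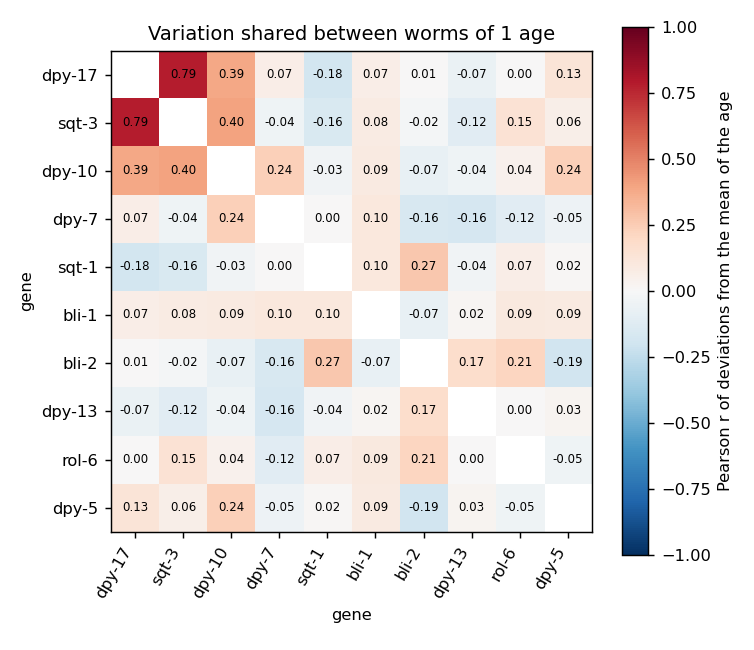
Pearson r between each pair of the 10 collagens (both axes), computed from deviations of single worms from the mean of their age; the colour bar gives r. The strongest cell joins dpy-17 and sqt-3 at 0.79, and dpy-10 has 0.39 with dpy-17 and 0.40 with sqt-3.

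Fitted with age as a factor against every other gene, dpy-17 had positive partners in 8.77% and negative partners in 7.12% of genes, sqt-3 in 5.57% and 2.91%, and dpy-10 in 1.3% and 0.895%. For rol-6, sqt-1, dpy-5, bli-1 and bli-2 limma called 0 of 18888 genes as partners, with 834 to 1218 genes at an unadjusted p below 0.05. It called 1 for dpy-7 and 7 for dpy-13 (0.00529% and 0.0371%). In simulated data at this sample size, 19% of genes given a within-age r of 0.3 with dpy-17 were called and 95% of those given 0.5. Genes varied independently there, and 124 of 18888 were called, far fewer than for dpy-17 in the worms. A call therefore needed a smaller unadjusted p in the simulation, and its shares do not measure the sensitivity of the dpy-17 fit.

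Genes most like each collagen between worms of 1 age are given as a description, over 18758 genes with values in at least 95% of worms. For dpy-17 these were sqt-3 at r = 0.79, wrt-10, a hedgehog-related Warthog gene, at 0.78, and dpy-14, another collagen gene with a Dumpy mutant, at 0.75. For sqt-3 they were dpy-17, noah-1, which encodes an apical matrix protein, at 0.74, and wrt-10 at 0.71. For dpy-10 they were noah-2 at 0.60, inx-13, an innexin gene, at 0.56, and let-653, a gene of the precuticle matrix, at 0.55. The highest r with a named gene was lower for the rest, 0.52 for dpy-13 with clec-237, 0.44 for sqt-1 with oac-24, 0.42 for rol-6 with tmem-24, 0.41 for dpy-5 with cyp-35A5, 0.40 for bli-2 with sir-2.1, 0.37 for bli-1 with srw-66 and 0.35 for dpy-7 with cut-5. Each of these is the highest value among genes with a gene name; for bli-1 and dpy-7, 2 genes without a name had a higher r.

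Related genes were read from lists in the same way. The counts over age in every list below stand beside the 13.7% of all genes that rose and the 14.2% that fell. Counts of partners stand beside other shares of all genes. Positive partners made up 8.77% for dpy-17, 5.57% for sqt-3 and 1.3% for dpy-10, and negative ones 7.12%, 2.91% and 0.895%. Of 10 other collagen genes with shape mutants, 2 rose over age and 0 fell (2 and 1 at an unadjusted p below 0.05 by limma): dpy-14, with a slope of 0.126 ± 0.0233 log2 per day (SE, limma adjusted p = 8.08e-06), and the furrow collagen dpy-2, with 0.0479 ± 0.0149 (adjusted p = 0.00945). Of these 10, 3 were positive partners of dpy-17, 3 of sqt-3 and 2 of dpy-10, and 0 were negative partners of any of them. Among the 6 furrow collagens, dpy-2, dpy-3, dpy-7, dpy-8, dpy-9 and dpy-10, 2 rose and 0 fell (3 and 0 at an unadjusted p below 0.05 by limma), namely dpy-2 and dpy-10. These 2 varied together between worms of an age, with r = 0.54 (limma adjusted p = 2.96e-05).

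Of 17 genes for collagen folding, secretion and processing, 5 rose and 1 fell. The risers included dpy-18, a prolyl 4-hydroxylase subunit, at 0.0731 ± 0.0151 log2 per day (SE, limma adjusted p = 6.15e-05), pdi-3, a protein disulphide isomerase, at 0.0457 ± 0.0095 (adjusted p = 6.61e-05), and mlt-7, a peroxidase, at 0.0296 ± 0.0107 (adjusted p = 0.0278). The 1 that fell was dpy-31, the protease for SQT-3, at -0.0478 ± 0.0133 (adjusted p = 0.00341), and its day 24 difference from day 4 was -1.44 ± 0.32. Between worms of an age dpy-18 was a positive partner of sqt-3, with r = 0.53, and of dpy-17, with r = 0.53. The r of dpy-31 was 0.0174 with sqt-3 and -0.0388 with dpy-17 (limma adjusted p = 0.952 and 0.856). A negative partner of dpy-17 was bli-4, a proprotein convertase that trims collagens, with r = -0.34 (adjusted p = 0.0162).

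Moulting and other cuticle matrix genes had 8 members that rose and 1 that fell, of 24 measured, with a lowest slope of -0.0461 log2 per day. The rise was 0.15 ± 0.0263 log2 per day for lpr-3, a lipocalin of the precuticle (SE, limma adjusted p = 2.83e-06), 0.0991 ± 0.0203 for let-653 (adjusted p = 5.38e-05), 0.0709 ± 0.0103 for mlt-10 (adjusted p = 2.25e-08) and 0.0701 ± 0.0157 for noah-1 (adjusted p = 0.000234). Partners of dpy-17 made up 13 of the 24, 12 positive and 1 negative, and those of sqt-3 11, 10 positive and 1 negative. Of all genes, 8.77% were positive and 7.12% negative partners of dpy-17, and 5.57% and 2.91% were those of sqt-3. For lpr-3 the r was 0.66 with dpy-17 and 0.70 with sqt-3.

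In the DBL-1 pathway, a TGF-beta pathway that sets body size, 4 of 10 measured genes rose and 2 fell, with a lowest slope of -0.0279 log2 per day. Among all genes, 13.7% rose and 14.2% fell. Of the DBL-1 pathway genes the Smad genes sma-3 and sma-4 rose by slopes of 0.0732 ± 0.0109 and 0.0498 ± 0.0113 log2 per day (SE, limma adjusted p = 5.47e-08 and 0.00029), with sma-9 at 0.0304 ± 0.0092 (adjusted p = 0.00766) and lon-1 at 0.0616 ± 0.0204 (adjusted p = 0.0152). Of 13 epidermal and moulting regulators, 2 rose, myrf-1 at 0.02 ± 0.0057 (adjusted p = 0.00402) and elt-1 at 0.0639 ± 0.0198 (adjusted p = 0.0091), and lin-26 fell, at -0.0249 ± 0.0075 (adjusted p = 0.00714). The number of regulators that rose was near the share of all genes, 13.7%.

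Markers of other cells that a whole worm can hold were read beside these results. Of 11 genes of the zygotic embryo and hatching, 2 rose over age, ceh-51, a homeobox gene, at 0.118 ± 0.0239 log2 per day (SE, limma adjusted p = 4.43e-05), and hch-1, a hatching protease gene, at 0.112 ± 0.026 (adjusted p = 0.000376), and 0 fell (1 at an unadjusted p below 0.05). Among all genes, 13.7% rose and 14.2% fell, so the number that rose over age was near that share. At day 24 against day 4, 4 of the 11 were higher and 0 lower (1 at an unadjusted p below 0.05). Of all genes, 8.35% were higher and 8.14% lower there. Besides ceh-51 and hch-1, ref-2 and tbx-37 were higher, while end-1, end-3, med-1, med-2, tbx-35, tbx-38 and pes-10 were called in neither comparison. The mean over these 11 genes was -0.19 ± 0.74 at day 4 (SD, n = 13) and 0.45 ± 0.60 at day 24 (n = 9). It was highest at day 12, 0.68 ± 0.56 (n = 17). The mean ran from -0.60 to 1.40 in day 24 worms, against -1.12 to 1.50 in day 4 worms. Within ages this mean had r = 0.338 and rho = 0.322 with dpy-17 (permutation adjusted p = 0.0024 and 0.0069 over 18 relations, r = 0.345 without the 2 farthest worms). With sqt-3 it had r = 0.208 and rho = 0.184 (permutation adjusted p = 0.0448 and 0.131, r = 0.236 without the 2 farthest worms), and with dpy-13 r = -0.298 and rho = -0.200 (permutation adjusted p = 0.0184 and 0.131, r = -0.211 without the 2 farthest worms). Of the list, 1 of the 11 genes, hch-1, was called as a partner, with r = 0.60 for dpy-17, 0.62 for sqt-3 and 0.33 for dpy-10 (limma adjusted p = 0.0429 for dpy-10).

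Of 6 oocyte genes, 0 rose over age and 5 fell, also at an unadjusted p below 0.05, puf-5, an RNA-binding protein gene, by a slope of -0.0855 ± 0.0158 log2 per day (SE, limma adjusted p = 8.26e-06). Their course was not steady. At day 8 against day 4, 2 of the 6 were higher and 0 lower, with a median difference of 0.71 log2. Of all genes, 5.21% were higher and 6.14% lower in that contrast. At day 12 against day 8, the step in which dpy-17 and sqt-3 were called higher, 0 of the 6 were higher and 6 lower by limma. Their median difference was -1.14 log2, and 7.76% of all genes were higher and 7.83% lower in this step. The mean over the 6 oocyte genes ran from -1.55 to 0.31 in day 24 worms, against -1.22 to 1.33 in day 4 worms. Within ages it had r = -0.378 and rho = -0.385 with dpy-17 (permutation adjusted p = 0.00189 and 0.00198, r = -0.323 without the 2 farthest worms), and r = -0.278 and rho = -0.267 with sqt-3 (permutation adjusted p = 0.0126 and 0.0198, r = -0.259 without the 2 farthest). The mean of the col genes had r = 0.370 and rho = 0.342 with dpy-17 (permutation adjusted p = 0.00189 and 0.0069, r = 0.341 without the 2 farthest), and r = 0.323 and rho = 0.302 with sqt-3 (permutation adjusted p = 0.00558 and 0.0114, r = 0.263 without the 2 farthest). With rol-6 it had r = 0.288 and rho = 0.290 (permutation adjusted p = 0.0126 and 0.0156, r = 0.270 without the 2 farthest). Among 8 genes of the adult epidermis, 1 rose, wrt-10, at 0.12 ± 0.0237 (limma adjusted p = 3.01e-05), and 0 fell over age, also at an unadjusted p below 0.05. The share of all genes that rose, 13.7%, was near this count. At day 24 against day 4, wrt-10 was higher, by 2.61 ± 0.51 log2 (SE, limma adjusted p = 6.76e-05), and col-19, an adult cuticle collagen gene, was lower, with a difference of -1.06 ± 0.25 (adjusted p = 0.000742). The part of embryos, oocytes or epidermis in the differences of the collagens was not tested.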

How the data were processed

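Single worms of 7 ages were measured on 2-colour arrays. The values used were the deposited log ratios per probe, read as log2; the submitters' processing notes name limma and no steps. The base, the dye on top and the genome build were not given in the sources used here. Array medians of the deposited log ratios ran from -0.034 to 0.009, their median absolute deviations from 0.579 to 0.601, and 0.537% of values were missing. Depth does not apply to arrays, and the number of worms limits the precision.

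Of 22490 probes, 21383 matched a RefSeq gene by sequence name, and probes were averaged to 18889 genes, of which 10823 had a gene name. Missing values stayed missing, 1 worm of day 16 for rol-6 and 1 of day 8 for dpy-7. Fits used lmFit and eBayes of limma 3.58.1 in R 4.3.3 with Benjamini-Hochberg adjustment over all genes: age as a number, age as a factor with contrasts, each gene minus the mean of the col genes, and age plus 1 collagen as a covariate. Correlations used 100000 two-sided permutations within ages. On simulated data for the age trend, 64% of genes with a slope of 0.05 and 97% with 0.1 log2 per day were called. Genes varied independently there, and 167 were called, against 5257 in the worms. A call therefore needed a smaller unadjusted p in the simulation, and these shares hold for that setting only.

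The 10 collagens and the gene lists were chosen with earlier results of these data known. The text names all 10 collagens, the up to 4 genes of a list with the smallest p for the age trend (the other 7 marker genes of the embryo, col-121, the list members paired with a collagen, bli-4 among them, and the remaining names were added after their values were seen) and the 3 most similar named genes of a collagen, or the first of them where r was low. Names in the lists without a match, bus-8, crm-1, schn-1, col-7 and col-62, were not used here. Single worms are separate animals, but no label gives a batch. Alternatives were quantile normalisation, equal array spread, array weights, trended and robust eBayes, 1 probe per gene, genes with all values, log2 of age, the median of the col genes, ages left out, worms left out and a first component as covariate.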

Additional observations from a re-analysis of the deposited data

Results flagged for a closer look

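In 1 of the groups tested for a sample far from the others, the day 24 worms for sqt-3, the lowest worm stood apart at a log2 ratio of 1.03. The next was at 2.98 and the highest at 4.05, so the gap took 0.645 of the whole range, above the critical value of 0.493 for 9 samples. Chance gives a gap above that critical value in about 1 of 20 groups. The groups tested were the day 24 worms for each of the 10 collagens and for the means of the col, embryo and oocyte genes, at both ends. The same worm also had the lowest dpy-17 ratio of its age, 1.48, and the lowest dpy-7 (-2.03), dpy-10 (-0.52), sqt-1 (-1.01) and bli-1 (-0.80) ratios. Its mean of the embryo genes was the lowest of day 24, at -0.60, and its mean of the oocyte genes the highest, at 0.31. It was not the lowest worm for rol-6, dpy-13, dpy-5, bli-2 or the mean of the col genes. Without it, r of dpy-17 and sqt-3 at day 24 was 0.738 over 8 worms, against 0.873 with it, and over all ages r was 0.781 over 103 worms.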

How the results depend on the processing

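The rise of dpy-17 and sqt-3 kept its direction and its call under quantile normalisation, equal array spread, array weights, trended and robust eBayes, 1 probe per gene, genes with all values, log2 of age and the omission of day 4 or of day 24. The calls over age rested on day 4 for the other 4 genes: without day 4, 2 of the 10 were called (dpy-17 and sqt-3), and over days 12 to 24 only, 0 were, with slopes of 0.118 (limma adjusted p = 0.0572) for dpy-17 and 0.0763 (adjusted p = 0.481) for sqt-3. Relative to the col genes the counts were likewise 2 and 0. Fewer worms and a shorter span enter those fits. At day 8 against day 4, array weights left 2 called, rol-6 and dpy-5. Compared with the pool, 2 of the day 4 values were called under quantile normalisation, under equal spread and over genes with all values, a set that does not hold rol-6 and dpy-7. With the first component as covariate 1 pair of partners was called.

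Some small slopes changed sign, all of them not called under the alternative. For sqt-1 the slope was -0.00525 without day 4 and -0.00287 over days 12 to 24, and for bli-2 0.0058 and 0.000744. Relative to the col genes it was -0.0227 and -0.0106 for sqt-1, -0.00148 over days 12 to 24 for dpy-7, -0.00898 without day 4 for dpy-10, which was called in the full fit, and -0.00488 without day 4 for bli-1. For bli-2 it was 0.000489 under quantile normalisation, 0.00273 over genes with all values and 0.000878 without day 24. The cause was not tested.

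Leaving out each of the 22 worms of days 4 and 24 in turn gave 5 to 7 calls over age, 5 to 6 relative to the col genes and 5 to 6 at day 24 against day 4. The slope of bli-1 ran from -0.000491 to 0.012 and its day 24 difference from -0.311 to 0.0508, and the slope of bli-2 relative to the col genes from -0.00824 to 0.0028. No paired analysis was possible because the labels carry no replicate numbers, and the numbers used to name worms here only follow the order of accession.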
